A study of Mus musculus with 12 samples.

Results

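The interferon response and antigen presentation genes were described in mouse epiblast stem cells (EpiSCs), pluripotent cells kept in culture in a state close to the epiblast just before gastrulation. The set held 38 genes. A member was represented by every probe set that the platform annotation paired with its symbol and no other, which gave 67 probe sets for 37 members, out of 18193 genes represented in this way. Isg15, the ubiquitin-like modifier, had no such probe set and was dropped. The brightest probe set of a gene, by its mean log2 signal, was the one tested, and 32 members were among the 11105 genes whose mean signal reached the filter (a log2 signal of 5.97, which is a signal of 62.6).

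Interferons are cytokines released when cells sense viral nucleic acid. Their receptors act through Janus kinases and STAT and IRF transcription factors, which bind short elements in the promoters of interferon-stimulated genes, and many of these genes encode antiviral proteins or parts of the class I antigen presentation pathway. In that pathway the immunoproteasome cuts proteins into peptides, the TAP transporter carries them into the endoplasmic reticulum, and they are loaded onto a class I heavy chain paired with beta-2 microglobulin. Pluripotent cells are known for low class I display and for a weak interferon response.

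The study set haploid EpiSCs, which carry a single chromosome set, against diploid EpiSCs, all cultured in N2B27 supplemented with Activin A and bFGF and with no interferon or other agent named in the labels. There were 12 arrays, 3 biological replicates in each of 4 groups: diploid EpiSC-1 and diploid EpiSC-2, both labelled B6D2F1, and haploid EpiSC-1 and haploid EpiSC-2, both labelled 129Sv. The groups were read as 4 separate lines, and the labels gave no genetic change other than ploidy. Strain and ploidy divide the arrays in the same way and cannot be told apart. Each ploidy was represented by 2 lines, and p-values between lines of a ploidy measure the spread between replicates of a line.

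Array medians lay between 63.6 and 76.5, and the log2 signals of replicate arrays correlated at 0.989 to 0.992. All 14 epiblast markers with a probe set reached the filter in every line, and their summed signal was 97940 to 108407 on the diploid arrays and 54249 to 72585 on the haploid arrays. In haploid EpiSC-1 Otx2, Fgf5 and Foxd3 were close to the filter, at means of 74, 86.9 and 64.8. In haploid EpiSC-2 these 3 genes were at 2290, 2424 and 238. Of the 14 markers 12 were lower in the mean of the haploid lines and 2 higher, Sox2 (a log2 difference of 1.85) and Lefty1 (1.09). The summed signal of 24 fibroblast markers was 2059 to 2288 in diploid EpiSC-1, 7319 to 7506 in diploid EpiSC-2, 37758 to 38191 in haploid EpiSC-1 and 41000 to 41914 in haploid EpiSC-2. Leukocyte markers were low, with sums of 502 to 961 over 14 genes, and the pan-leukocyte gene Ptprc was at a mean of 5.13 to 20.5 in the 4 lines, under the filter. The 10 endothelial markers summed to 866 to 1626, with 2 to 4 at or above the filter in a line, among them Egfl7 (means of 378 to 778) and Flt1 (126 to 676), while Pecam1 and Tie1 did not exceed a mean of 9.58. In such bulk samples fewer cells of a type and less RNA per cell cannot be told apart.

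Promoters of the members were searched for 3 motifs. A direct repeat of GAAA with 2 bases of any kind between the copies, the core of the element bound by IRF factors and by the STAT and IRF9 complex, was searched on both strands of RefSeq promoter windows (GRCm38.p6, 250 bases before to 50 after each annotated start). This GAAA repeat was found in 15 of the 34 windows that matched 29 members (44.1%), against 3.44% of all 32851 windows. TTCNNNGAA, the core of the element bound by STAT dimers, was found in 6 of the 34 (17.6%) against 8.3% of all. GGGCGG, a GC box, was found in 15 of the 34 (44.1%) against 35.7% of all. Matches of the motifs could overlap one another. A match is a description of letters and not evidence of binding. The windows below belong to members that differed between the lines, and capitals mark matches of the GAAA repeat or of GGGCGG on either strand (the repeat reads as TTTC on the opposite strand). The guanylate-binding protein genes lie next to each other on chromosome 3, and the bases before their starts are Gbp3 at chr3:142559794-142560043, Gbp2b at chr3:142594597-142594846 and Gbp2 at chr3:142620413-142620662, all on the plus strand.
Gbp3: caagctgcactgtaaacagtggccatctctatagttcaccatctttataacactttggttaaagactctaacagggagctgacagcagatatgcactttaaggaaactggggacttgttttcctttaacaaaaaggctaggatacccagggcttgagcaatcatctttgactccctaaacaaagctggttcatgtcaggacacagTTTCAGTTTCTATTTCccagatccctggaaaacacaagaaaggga
Gbp2b: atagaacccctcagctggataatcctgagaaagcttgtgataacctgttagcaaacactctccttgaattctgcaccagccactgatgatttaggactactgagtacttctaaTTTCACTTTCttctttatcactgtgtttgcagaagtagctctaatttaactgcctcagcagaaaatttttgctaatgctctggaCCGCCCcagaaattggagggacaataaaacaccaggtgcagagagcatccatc
Gbp2: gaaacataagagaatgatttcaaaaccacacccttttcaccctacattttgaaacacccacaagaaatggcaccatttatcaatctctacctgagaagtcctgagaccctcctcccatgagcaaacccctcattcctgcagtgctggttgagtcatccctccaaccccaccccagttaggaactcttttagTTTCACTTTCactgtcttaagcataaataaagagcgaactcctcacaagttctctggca
All 3 held the GAAA repeat, with its first base at -45 and -39 relative to the start in Gbp3, at -137 in Gbp2b and at -59 in Gbp2. Gbp2b also held a GC box at -53. The levels of these 3 genes across the lines differed.

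Shorter stretches hold the same repeat in antiviral genes and in a chemokine gene. They are Bst2 at chr8:71537567-71537622, Cxcl10 at chr5:92349073-92349122, Rsad2 at chr12:26456543-26456592 and Oas1a at chr5:120907526-120907565, each on the minus strand, and Ifit1 at chr19:34640765-34640833 and Ifit3 at chr19:34583353-34583436 on the plus strand.
Bst2: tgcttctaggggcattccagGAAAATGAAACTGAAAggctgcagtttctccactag
Cxcl10: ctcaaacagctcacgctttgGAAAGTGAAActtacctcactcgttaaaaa
Rsad2: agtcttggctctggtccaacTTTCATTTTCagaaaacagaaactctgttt
Oas1a: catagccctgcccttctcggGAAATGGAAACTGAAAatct
Ifit1: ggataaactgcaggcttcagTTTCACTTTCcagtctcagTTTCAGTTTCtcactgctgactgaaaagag
Ifit3: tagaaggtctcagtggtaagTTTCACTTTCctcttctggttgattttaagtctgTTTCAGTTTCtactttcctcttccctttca
Bst2 and Oas1a each carried 2 overlapping matches, Ifit1 and Ifit3 carried 2 separate ones, and Cxcl10 and Rsad2 carried 1 each.

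**Figure D1:**
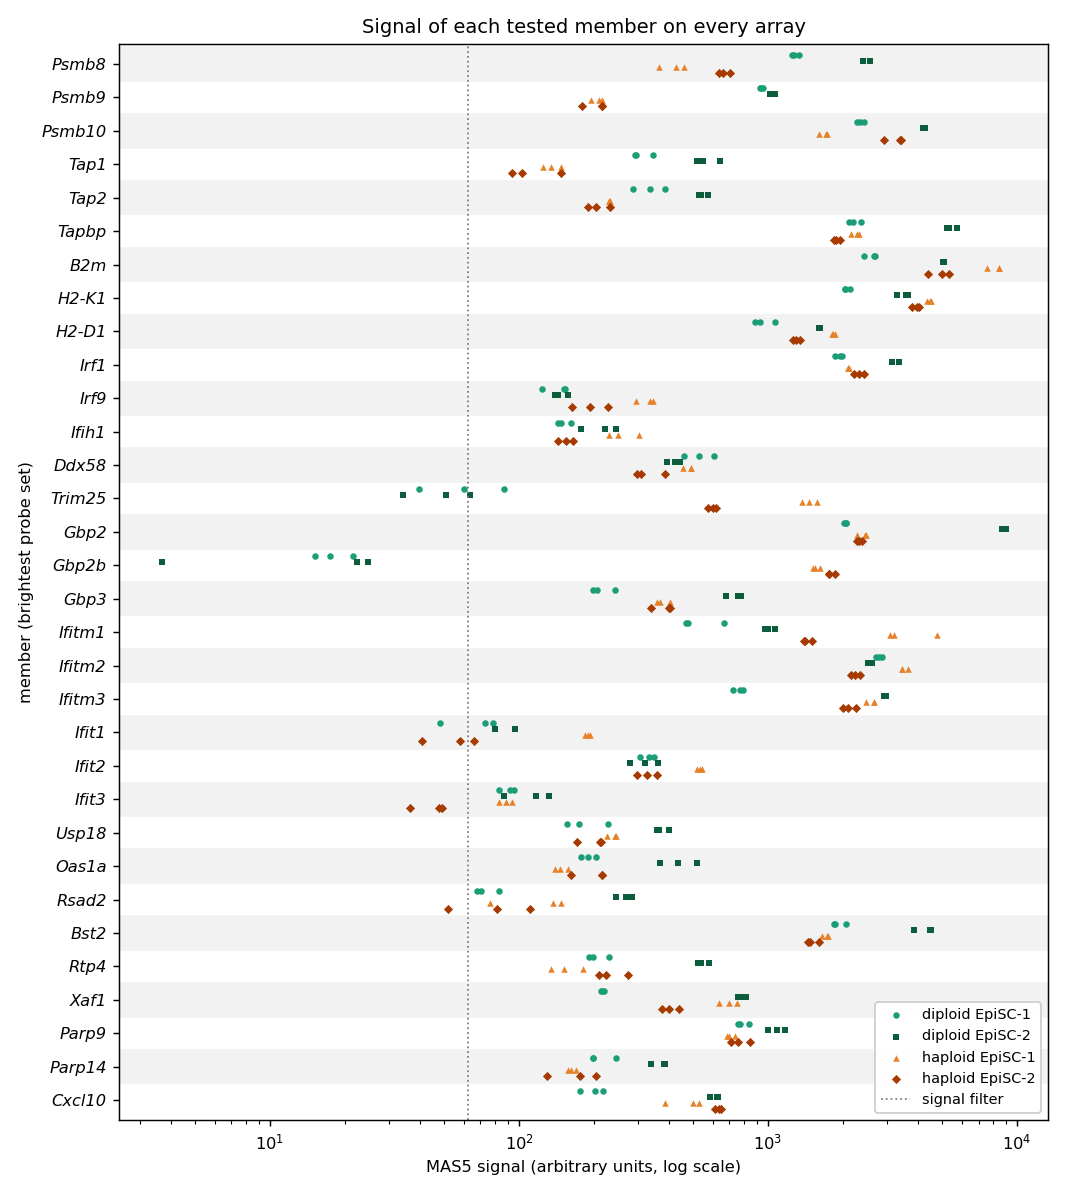
MAS5 signal (log axis) of the brightest probe set of each of the 32 tested members on all 12 arrays, with symbols for the 4 lines and a dotted line at the signal filter of 62.6. Diploid EpiSC-2 lay above every other array for 18 members, and Gbp2b and Trim25 were under the filter in the mean of each diploid line. The count of 18 was not set against all tested genes.

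Most members differed between the diploid lines. Called higher in diploid EpiSC-2 were 8 of 9 tested class I genes, 2 of 3 guanylate-binding protein genes and 5 of 8 antiviral effectors, by up to 4.34-fold for Gbp2. Of the 32 tested members, 23 (71.9%) were called higher in diploid EpiSC-2 and 2 lower (6.25%), at an adjusted p under 0.05 in a limma fit over all tested genes. Among all genes tested, 26.4% were called higher and 29.4% lower. The median log2 difference of the members was 0.82, against -0.013 for all genes, and 27 members lay above zero. Fibroblast markers differed between these lines too: 12 of 20 tested were called higher in diploid EpiSC-2 and 2 lower, with the sums given above. The 14 leukocyte markers summed to 751 to 838 in diploid EpiSC-1 and 941 to 961 in diploid EpiSC-2, with 5 at or above the filter in each. Of the 4 tested, 1 was called higher in diploid EpiSC-2, the macrophage gene Cd68 (means of 111 and 325, adjusted p = 1.26e-05), and 1 lower, while Ptprc was under the filter in both. The part of other cells in the difference was not tested.

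Of the 9 tested class I genes, 8 were higher in diploid EpiSC-2. Tapbp encodes tapasin, which holds class I molecules at the peptide transporter. Its signals were 2117, 2187 and 2351 in diploid EpiSC-1 and 5320, 5240 and 5744 in diploid EpiSC-2, with 2147 to 2316 in haploid EpiSC-1 and 1842 to 1941 in haploid EpiSC-2. Diploid EpiSC-2 thus stood above the other 3 lines without overlap. The log2 difference between the diploid lines was 1.29 ± 0.05 (SE, 3 arrays each, adjusted p = 4.78e-11). The other Tapbp probe set above the filter was dimmer and gave 0.31 (adjusted p = 0.215 in the limma fit of single probe sets). The heavy chain genes H2-K1 and H2-D1 differed by 0.77 and 0.75, the light chain gene B2m by 0.96, the transporter genes Tap1 and Tap2 by 0.87 and 0.71, and the immunoproteasome genes Psmb8 and Psmb10 by 0.95 and 0.84. Psmb9, which encodes the remaining inducible subunit, was at 0.14 (adjusted p = 0.195). These calls are of brightest probe sets. On the mean of all probe sets of a gene H2-D1 was not called, and Tap1 was under the filter.

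The guanylate-binding proteins are large GTPases that attack the compartments of intracellular pathogens. Gbp2 read 2060, 2056 and 2019 in diploid EpiSC-1 and 8703, 9040 and 8888 in diploid EpiSC-2. In the haploid lines it read 2266, 2478 and 2458 and then 2327, 2380 and 2282, so diploid EpiSC-2 lay far above the other lines and diploid EpiSC-1 somewhat below the haploid lines, both without overlap. The difference between the diploid lines was 2.12 ± 0.04 (adjusted p = 2.65e-14), and its other probe set gave 2.27. On that other probe set diploid EpiSC-1 (1955 to 2110) overlapped haploid EpiSC-1 (2041 to 2265). Gbp3 was also highest in diploid EpiSC-2, with 205, 242 and 198 in diploid EpiSC-1 and 756, 776 and 677 in diploid EpiSC-2. Both haploid lines lay between them, at 359 to 405 and 338 to 402, and the diploid difference was 1.78 ± 0.11 (adjusted p = 3.93e-09). Gbp2b, which lies between these genes on the chromosome, read 3.67 to 24.8 on the 6 diploid arrays and had a diploid difference of -0.49 ± 0.50 (adjusted p = 0.421).

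Ifitm3 encodes a membrane protein that blocks the fusion of viruses with endosomes. It read 721, 794 and 768 in diploid EpiSC-1 and 2933, 2969 and 2930 in diploid EpiSC-2, a difference of 1.95 ± 0.05 (adjusted p = 7.10e-13). The haploid arrays lay between, at 2000 to 2672. Its neighbours on chromosome 7 did not share the size of this difference: Ifitm1 was at 0.93 and Ifitm2 at -0.12 (adjusted p = 0.0296), the latter with signals of 2718 to 2871 against 2526 to 2622.

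Among the antiviral effectors, 5 of 8 tested were higher in diploid EpiSC-2 and 0 lower in limma (0 lower at an unadjusted p under 0.05 too). Rsad2, which encodes viperin, an enzyme that makes a chain-terminating nucleotide, read 68.1, 83.4 and 70.1 against 283, 246 and 268, a difference of 1.85 ± 0.28 (adjusted p = 5.57e-05). Diploid EpiSC-1 was near the filter for this gene, and its other probe sets, both under the filter on average, gave 1.53 and 1.10. Rtp4, an interferon-induced gene of the receptor transporter family, read 191, 199 and 230 against 537, 524 and 581 (1.41 ± 0.14, adjusted p = 7.18e-07). Oas1a encodes a sensor of double-stranded RNA that activates RNase L. It read 204, 190 and 177 against 367, 436 and 519 (1.20 ± 0.15, adjusted p = 9.38e-06), without overlap. Bst2 encodes tetherin, which holds budding virus particles at the cell surface, and read 1834, 1851 and 2049 against 4474, 4492 and 3852 (1.16 ± 0.07, adjusted p = 2.63e-09). Usp18, which removes ISG15 from proteins and damps the type I receptor, read 227, 174 and 156 against 359, 401 and 366 (1.03 ± 0.14, adjusted p = 2.56e-05). The Ifit genes, whose proteins bind foreign RNA ends, did not pass here: Ifit1 was at 0.39, Ifit2 at -0.05 and Ifit3 at 0.30.

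Xaf1, which encodes a binding partner of the apoptosis inhibitor XIAP, read 215, 213 and 220 in diploid EpiSC-1 and 816, 779 and 760 in diploid EpiSC-2, a difference of 1.86 ± 0.08 (adjusted p = 1.80e-10). Cxcl10, a chemokine gene, read 175, 218 and 201 against 583, 622 and 629 (1.63 ± 0.11, adjusted p = 2.18e-08). Cxcl10 was the exception among the 11 members with a called difference of at least 2-fold, since haploid EpiSC-2 reached 611 to 648 for it. For the other 10, every array of diploid EpiSC-2 lay above all 9 arrays of the other lines. The same count over all tested genes was not made. The ADP-ribosyltransferase family genes Parp9 and Parp14 differed by 0.46 and 0.79.

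Of the transcription factors, Irf1, an activator of class I and immunoproteasome genes, was higher by 0.77 and Irf9, which encodes a DNA-binding factor of interferon signalling, was at 0.04 (adjusted p = 0.825). Irf7 and Stat2 were under the filter on average, with mean signals of 20.8 to 53.3 and 38.0 to 93.0 in the 4 lines. Among the RNA sensor genes, Ifih1 was higher by 0.49 and Ddx58, which encodes RIG-I, was lower by 0.33 on its brightest probe set (a log2 difference of -0.33, adjusted p = 0.0241). The lower calls of Ddx58 and Ifitm2 were lost with quantile normalization, where 24 members were called higher and 0 lower in limma. In that run 3094 of all 11102 tested genes were called higher and 2817 lower.

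**Figure D2:**
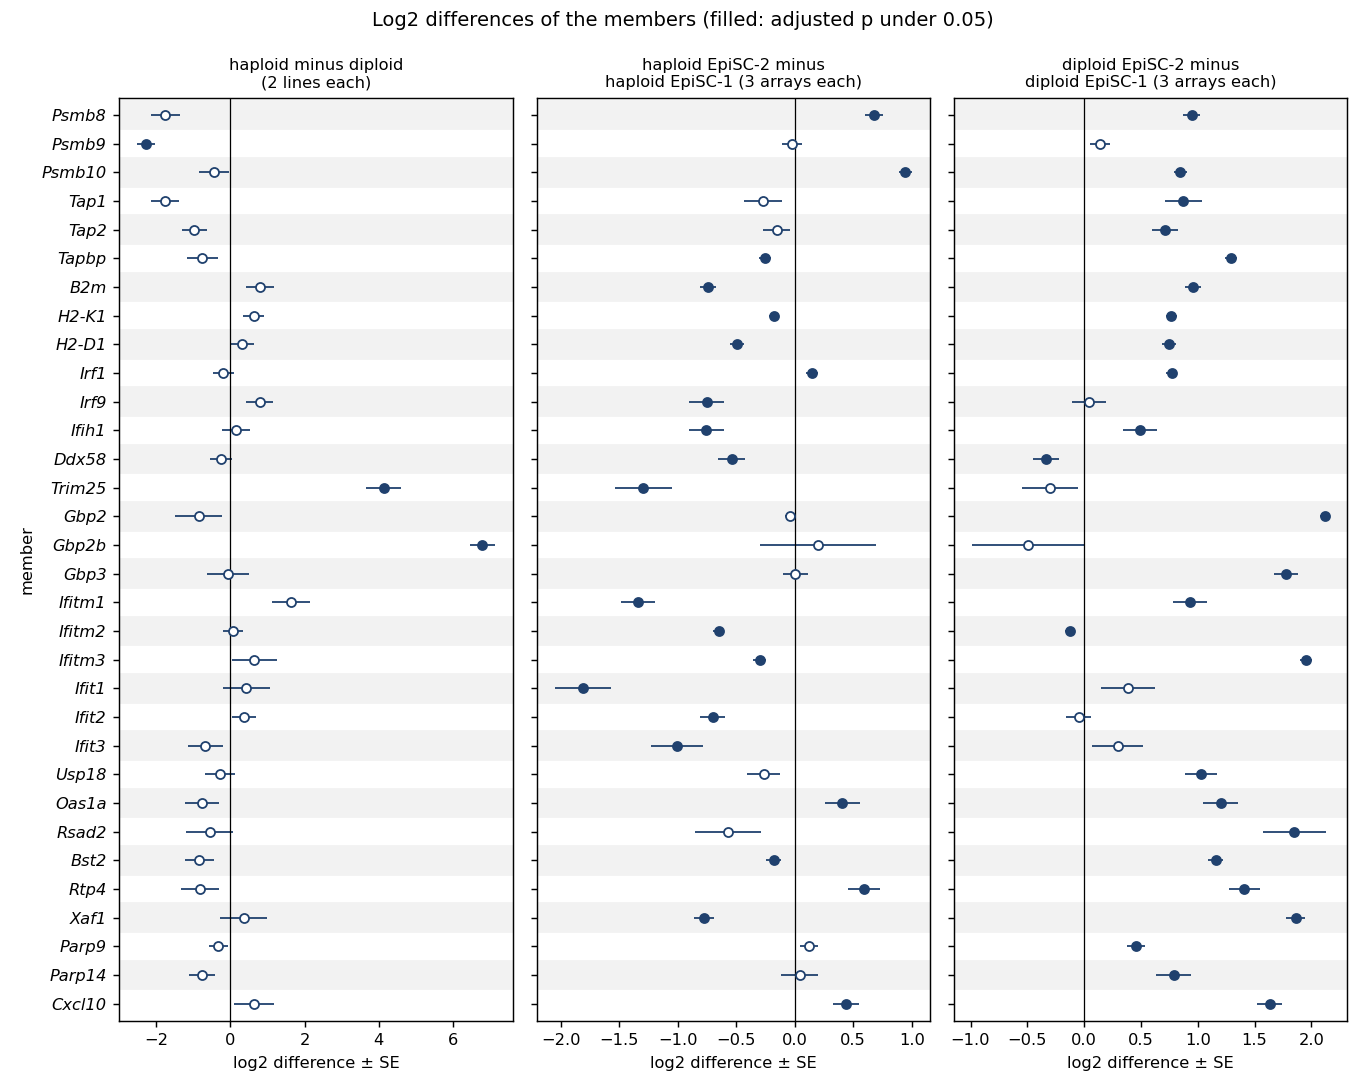
Log2 differences ± SE of the 32 tested members in the 3 comparisons, with filled points at an adjusted p under 0.05 in limma. Filled points lie mostly above zero between the diploid lines (23 of 25) and below zero between the haploid lines (16 of 22), and 3 are filled between the ploidies.

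**Figure D3:**
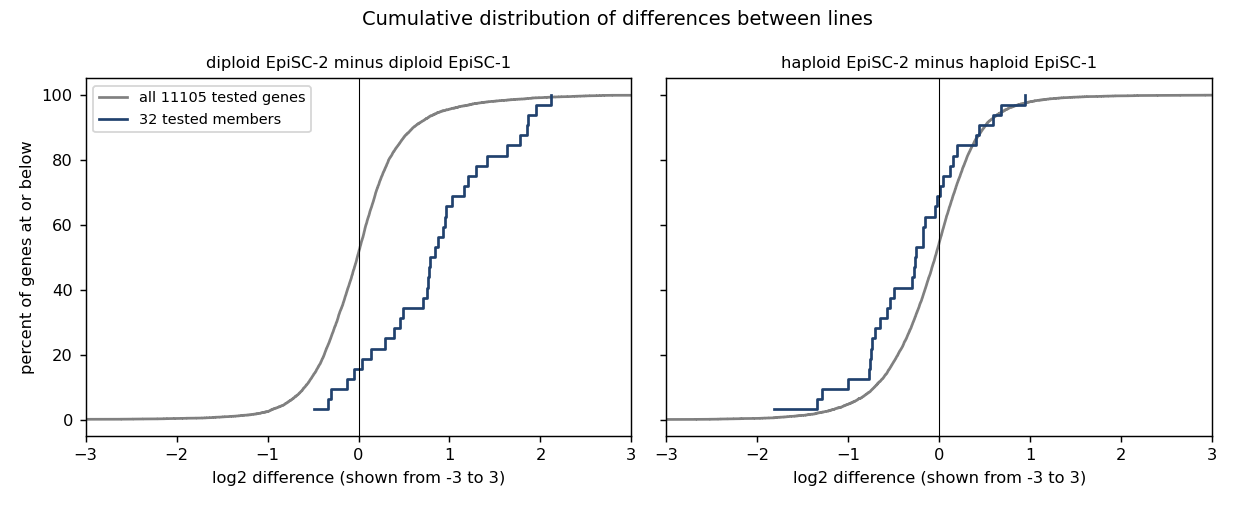
Cumulative percent of genes at or below each log2 difference, for the 32 tested members and all 11105 tested genes, between the diploid lines (left) and the haploid lines (right). The medians of the members were 0.82 and -0.26, and those of all genes -0.013 and -0.045.

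Between haploid and diploid cells few members passed the test, which used the 4 line means as units. Gbp2b and Trim25 were higher in the haploid lines and Psmb9 was lower. That is 2 of 32 higher and 1 lower, against 2.02% and 0.910% of all genes tested. The 2 called higher passed the filter only through the haploid lines, and the differences of Gbp2b and Psmb9 had been seen beforehand. These shares are therefore a description and not a test of the members. The median difference of the members was -0.22, against 0.003 for all genes. By arrays that did not overlap between the ploidies and a difference of at least 2-fold, 3 members were higher and 3 lower, against 7.42% and 3.87% of all genes tested. Of fibroblast markers 11 of 20 tested were called higher in the haploid lines and 0 lower in limma (17 and 0 at an unadjusted p under 0.05), and their part in these differences was not tested.

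Gbp2b read 21.6, 17.4 and 15.1 in diploid EpiSC-1 and 24.8, 3.67 and 22.4 in diploid EpiSC-2. It read 1539, 1520 and 1619 in haploid EpiSC-1 and 1757, 1855 and 1751 in haploid EpiSC-2. All diploid arrays were under the filter and all haploid arrays far above it. The difference was 6.79 ± 0.34 (log2, SE, 2 lines each, adjusted p = 0.00163), with 4.42 to 7.04 over the alternatives, and its size is uncertain because the diploid signals were close to background. Its neighbours Gbp3 and Gbp2 were at -0.07 and -0.85 and did not pass (adjusted p = 0.958 and 0.496). Gbp7, next to Gbp3 and named after its values were seen, was at 2.38 (adjusted p = 0.112).

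Trim25 encodes a ubiquitin ligase that assists RIG-I signalling. It read 86.7, 39.8 and 60.3 in diploid EpiSC-1 and 63.6, 34.2 and 51.0 in diploid EpiSC-2, against 1457, 1367 and 1570 in haploid EpiSC-1 and 617, 572 and 601 in haploid EpiSC-2. The ploidies did not overlap, and haploid EpiSC-1 stood highest. The difference was 4.13 ± 0.47 (adjusted p = 0.0183), and a second probe set gave 4.10. Gbp2b and Trim25 passed the filter only through the haploid lines, so a difference was a condition of their being tested. Without haploid EpiSC-1 the call of Trim25 was lost (adjusted p = 0.0959). The sensor genes Ifih1 and Ddx58 were at 0.15 and -0.25.

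Psmb9, the member called lower, encodes an inducible catalytic subunit of the immunoproteasome. It read 925, 957 and 939 in diploid EpiSC-1, 1069, 1015 and 1020 in diploid EpiSC-2, 195, 209 and 216 in haploid EpiSC-1 and 216, 179 and 216 in haploid EpiSC-2. Both haploid lines shared a level below both diploid lines, with a difference of -2.27 ± 0.24 (adjusted p = 0.0162). Without haploid EpiSC-1 or without haploid EpiSC-2 the call was lost, with adjusted p values of 0.0990 and 0.0534. Psmb8, another inducible subunit, read 1266, 1242 and 1327, then 2406, 2408 and 2572 in the diploid lines, against 427, 365 and 460, then 635, 659 and 702 in the haploid lines. The ploidies did not overlap, but the lines within each differed, and its difference of -1.75 ± 0.40 did not pass (adjusted p = 0.0801). Tap1, a subunit of the peptide transporter, read 291, 296 and 344, then 519, 547 and 640, against 148, 135 and 125, then 103, 93.4 and 147. Its difference was -1.76 ± 0.38 (adjusted p = 0.0722). With the line as a random block over the 12 arrays, Psmb8 and Tap1 passed as well (adjusted p = 5.07e-04 and 0.00899). That fit assumes the same correlation (0.806) for every gene and calls too many genes, so these passes are no firm support. Tap1 also passed with arrays centred on their medians (-1.88, adjusted p = 0.0378).

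These genes lie together in the major histocompatibility complex. Psmb9, Tap1, Psmb8 and Tap2 follow each other along chromosome 17, at places 19 to 22 of 90 protein-coding genes from Tapbp to H2-D1. Tap2 was at -0.97 (adjusted p = 0.179), also without overlap of the ploidies. The other 48 tested genes of the segment, which are no members, had a median difference of 0.11 and a range of -1.83 for the meiotic gene Msh5 to 5.00 for the heat shock gene Hspa1b (adjusted p = 0.118). D17H6S56E-5 was the gene of these called higher (2.04, adjusted p = 0.0436), and 0 were called lower in limma (3 higher and 1 lower at an unadjusted p under 0.05). These 3 genes were chosen after their values were seen. Psmb9 and Tap1 point away from each other, and the 225 bases between their starts, at chr17:34187331-34187555 on the plus strand, are shown with a GC box in capitals.
Psmb9-Tap1: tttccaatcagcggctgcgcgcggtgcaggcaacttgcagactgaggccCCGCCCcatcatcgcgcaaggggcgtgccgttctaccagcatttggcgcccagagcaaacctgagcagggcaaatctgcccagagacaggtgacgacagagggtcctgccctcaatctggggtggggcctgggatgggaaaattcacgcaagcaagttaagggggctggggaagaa
Within this interval the GAAA repeat and TTCNNNGAA did not match, which says only that these letters are not in this window.

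**Figure D4:**
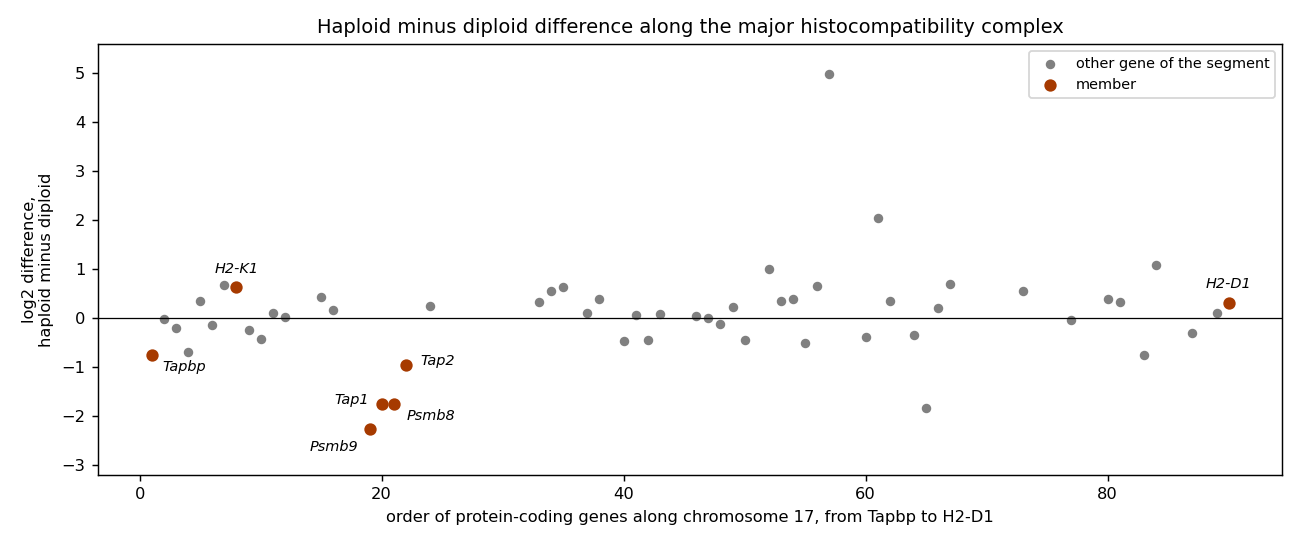
Log2 difference, haploid minus diploid, of each tested gene against its order among 90 protein-coding genes of chromosome 17 from Tapbp to H2-D1, with the members labelled. Psmb9, Tap1, Psmb8 and Tap2 lie between -2.27 and -0.97, and H2-K1 and H2-D1 at 0.63 and 0.31.

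The other tested class I genes did not pass between the ploidies. B2m was at 0.80 (adjusted p = 0.296), H2-K1 at 0.63 (adjusted p = 0.270), H2-D1 at 0.31 (adjusted p = 0.631), Tapbp at -0.75 (adjusted p = 0.362) and Psmb10 at -0.43 (adjusted p = 0.590). The other B2m probe set gave 1.06 (adjusted p = 0.184 in the limma fit of single probe sets). On it the diploid arrays read 1745 to 3753 and the haploid arrays 3790 to 7072, without overlap. H2-K1 read 2027 to 3657 on the diploid arrays and 3797 to 4498 on the haploid arrays, which did not overlap. Nlrc5, the transactivator of class I genes, was under the filter in every line, at means of 39.9 to 55.7, and was not tested.

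H2-D1 was measured by 9 probe sets that did not agree, since 3 of them were far lower in the haploid lines. On the first of 3 such probe sets the diploid arrays read 325 to 646 and the haploid arrays 15.1 to 43.2 (-4.07, adjusted p = 0.00936 in the limma fit of single probe sets). On the next they read 430 to 690 and 8.79 to 41.3 (-4.71, adjusted p = 0.00480). Both passed the filter only through the diploid lines, so a difference was a condition of their being tested. On the last, whose mean was under the filter, they read 315 to 468 and 3.34 to 32.0. The other tested probe sets of H2-D1, 4 in number, were at 0.14 to 0.52 and did not pass. Class I genes are highly polymorphic between strains and near-identical to one another, and probe sets of this family can share targets, so a level of H2-D1 or H2-K1 is uncertain. The part of strain sequence differences in these values was not tested. The 4 probe sets of H2-K1 ranged from -0.52 to 0.63. Xaf1 split in the same way, at 0.36 on its brightest probe set and -1.92 on the other, where the diploid arrays read 159 to 442 and the haploid arrays 36.6 to 119 (adjusted p = 0.120).

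**Figure D5:**
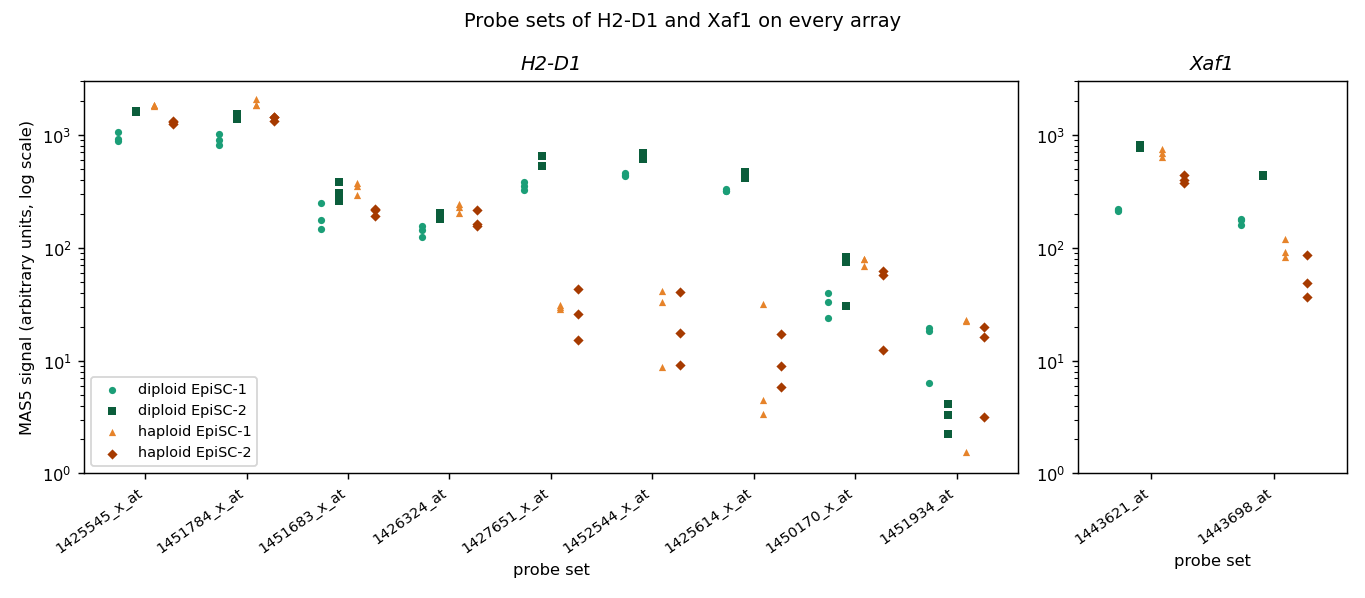
MAS5 signal (log axis) of each probe set of H2-D1 (9) and Xaf1 (2) on the 12 arrays, with symbols for the 4 lines. On 3 H2-D1 probe sets the haploid arrays lie at 3.34 to 43.2 and the diploid arrays at 315 to 690, while the other 6 H2-D1 probe sets show no such gap.

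On the brightest probe sets, Ifitm1 was the remaining member whose arrays did not overlap between the ploidies and whose mean difference was at least 2-fold. It read 667, 468 and 476, then 995, 973 and 1067 in the diploid lines, against 4784, 3099 and 3216, then 1392, 1501 and 1410 in the haploid lines. Its difference of 1.64 ± 0.51 did not pass (adjusted p = 0.150), and the lines of each ploidy lay far apart. Irf9 and Bst2 also had arrays that did not overlap, at 0.79 (adjusted p = 0.277) and -0.83 (adjusted p = 0.281). Of the 8 antiviral effectors 0 were called in limma (0 at an unadjusted p under 0.05), with a median of -0.62. Bst2 was called with the line as a random block, the fit that calls too many genes.

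Of the haploid lines, haploid EpiSC-2 had lower signals of the 3 Ifit and 3 Ifitm genes, of the 3 tested RNA sensor genes and of 4 class I genes. Of 32 members, 16 were called lower and 6 higher, against 31.0% and 25.7% of all genes tested, and the median was -0.26 against -0.045 for all genes. The split of calls moved with scaling. Centring the arrays on their medians moved the all-gene median by 0.16, and then 12 members were called lower and 7 higher, while all genes gave 2207 lower and 4184 higher. Epiblast markers also differed, with 9 of 14 called higher in haploid EpiSC-2 and 2 lower, and their part in the difference was not tested.

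All 3 Ifit genes were lower in haploid EpiSC-2. Ifit1 read 189, 193 and 184 in haploid EpiSC-1 and 40.7, 65.7 and 57.8 in haploid EpiSC-2, a difference of -1.81 ± 0.24 (adjusted p = 1.68e-05). The second line was near or under the filter, and the diploid arrays, at 48.1 to 96.5, also lay below haploid EpiSC-1. Ifit3 read 88.5, 83.0 and 94.0 against 36.4, 49.1 and 47.9 (2.01-fold lower, SE 0.22 on the log2 scale, adjusted p = 0.00142), and here haploid EpiSC-2 lay below every other array. Ifit2 was at -0.70 (adjusted p = 6.58e-05). The 3 Ifitm genes were lower as well, Ifitm1 by the most (-1.34 ± 0.15, adjusted p = 2.56e-06), with Ifitm2 at -0.65 and Ifitm3 at -0.30. After median centring Ifitm3 was no longer called.

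The RNA sensor genes were all lower in haploid EpiSC-2 on their brightest probe sets: Trim25 by 1.29 on the log2 scale (-1.29 ± 0.24, adjusted p = 4.00e-04), Ifih1 by 0.76 and Ddx58 by 0.54. The mean of all 3 Trim25 probe sets gave -0.59 (adjusted p = 0.133), and Ddx58 was not called on such means either. The other Ddx58 probe set above the filter gave -0.13 (adjusted p = 0.712 in the limma fit of single probe sets). Irf9 was lower by 0.75 (-0.75). Xaf1 (-0.77, adjusted p = 2.38e-06) and Bst2 (-0.18, adjusted p = 0.0315) were also called lower in limma, Bst2 not after median centring. Of the class I genes, B2m was at -0.74, H2-D1 at -0.49, Tapbp at -0.25 and H2-K1 at -0.18, all called. Tapbp and H2-K1 were not called after median centring, and H2-D1 was not called on the mean of all its probe sets. The immunoproteasome genes Psmb8 and Psmb10 were higher by 0.68 and 0.95. The other members called higher in haploid EpiSC-2 were Irf1 (0.15), Oas1a (0.41), Rtp4 (0.60) and Cxcl10 (0.44).

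No line was highest for all members. Over the 32 tested, the highest line mean was in diploid EpiSC-2 for 19, in haploid EpiSC-1 for 10, in haploid EpiSC-2 for 2 and in diploid EpiSC-1 for 1. The lowest was in diploid EpiSC-1 for 14, in haploid EpiSC-2 for 9, in haploid EpiSC-1 for 6 and in diploid EpiSC-2 for 3. These counts describe the members only, since the same counts over all tested genes were not made. Mx1, an antiviral GTPase gene, was under the filter in every line (means of 18.2 to 30.7), and Dhx58, which encodes the RNA sensor LGP2, was above it in both EpiSC-1 lines only (76.5 and 89.4, against 47.8 and 18.2).

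The rest of the pathway was taken from 120 listed genes, of which 106 had a probe set and 75 were tested. Between the ploidies 2 were called higher and 2 lower, against 2.02% and 0.910% of all genes tested. In haploid EpiSC-2, set against the other haploid line, 26 were called lower and 15 higher (31.0% and 25.7% of all genes), and between the diploid lines 34 were called higher and 9 lower in diploid EpiSC-2 (26.4% and 29.4% of all genes). Parp12, an antiviral ADP-ribosyltransferase gene, was at 6.06 (adjusted p = 0.0162) and Cd1d1, which encodes a lipid-presenting molecule, at 4.03 (adjusted p = 0.0193). Both were under the filter in each diploid line (means of 13.7 and 6.06 for Parp12, 22.7 and 18.2 for Cd1d1) and passed it only through the haploid lines, so a difference was a condition of their being tested and its size is uncertain. Ifi27l2a was at -2.96 (adjusted p = 0.0162) and Herc6, which encodes a ligase for ISG15, at -2.08 (adjusted p = 0.0318). The standard and regulatory proteasome subunits had 0 of 9 called in limma (0 higher and 2 lower at an unadjusted p under 0.05), with a median of -0.20 and a range of -0.73 to 0.38. Receptors and kinases had 0 of 10 called between the ploidies in limma (5 higher and 0 lower at an unadjusted p under 0.05). Between the haploid lines 8 of 10 were called lower in haploid EpiSC-2. The largest of these, chosen after their values were seen, were the kinase genes Jak1 (-2.33) and Jak2 (-1.54) and the transcription factor gene Stat3 (-1.63). Between the diploid lines 6 of the 10 receptors and kinases were called higher and 0 lower in limma (7 and 0 at an unadjusted p under 0.05). Of 20 further interferon-stimulated genes tested, 10 were called higher in diploid EpiSC-2 and 1 lower. The latter was Parp12, whose diploid signals were under the filter. The ligand genes were mostly under the filter: of 9 listed, interferon genes with Il6 and Tnf, 8 had a probe set and 1 was tested, Ifnz. In limma Ifnz was called higher in diploid EpiSC-2 (0.49, adjusted p = 0.033) and lower in haploid EpiSC-2 (-0.48, adjusted p = 0.037). Between the ploidies it was at 0.02 and was not called.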

How the data were processed

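Signals were measured on 12 Affymetrix mouse arrays. The authors deposited linear signal intensity values made with MAS5, per the submitters' processing notes, of a version not given in these sources. Each array's trimmed mean, without the outer 2% at each end, was 500. Of 45101 probe sets, 64 controls were dropped, and 932 with several symbols and 9160 without a symbol were not used. Values were used as log2 signals with no pseudocount or further scaling. Genes were tested where the mean of the brightest probe set reached the median of all probe sets. limma 3.58.1 in R 4.3.3 (empirical Bayes with an intensity trend, two-sided, Benjamini-Hochberg over 11105 genes, threshold 0.05) compared 2 haploid with 2 diploid line means, and the lines of a ploidy as group means over all 12 arrays. The random line block used duplicateCorrelation (statmod 1.5.0). Each fit was run on simulated data, with a required share of recovered changes for the fits between lines and none for those between the ploidies. Values in every array are given for members called between the ploidies, for members called between lines with at least a 2-fold difference, and for those without overlap between the ploidies and at least 2-fold. This choice went by the brightest probe set of each member. The members, lists and tests were chosen with earlier results of these data known, and the differences of Gbp2b and Psmb9 had been seen. No detection calls or scan dates were used. Promoter sequences and gene order came from RefSeq tables of GRCm38.p6.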

Additional observations from a re-analysis of the deposited data

How the results depend on the processing

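With the filter at the 75th percentile, 17 members and 6916 genes were tested. Then 1 member was called between the ploidies (Psmb9), 14 between the haploid lines and 16 between the diploid lines. Over all 6916 genes, 52, 4426 and 4526 were called in these comparisons. With the line as a random block 9 members were called between the ploidies (4 higher, 5 lower), and 7 with the replicate block added. Without the line haploid EpiSC-1 only Gbp2b was called (1 member, 7 of all genes), and without haploid EpiSC-2 2 were. Leaving out 1 array at a time gave 3 to 3 members between the ploidies, 19 to 23 between the haploid lines and 23 to 26 between the diploid lines. With all arrays, 6288 of all 11105 genes were called between the haploid lines and 6196 between the diploid lines. The replicate numbers did not pair the arrays (deviations of same-numbered arrays correlated at -0.05 to 0.08 over 18 pairs), 7 of 12 arrays correlated best with their own number, and the replicate block left 22 and 25 calls between lines. No named member changed direction in any alternative run. Over all genes, calls between the ploidies were 325, against 1913 with the line block (1651 with the replicate block too), 601 per probe set, 497 without a filter, 52 at the 75th percentile, and 158 and 128 without diploid EpiSC-1 and haploid EpiSC-2. The cause of these changes was not tested. Signals near background limit the size of folds, and 2 lines a ploidy limit the test.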
